A study of Xenopus tropicalis with 12 samples.

Results

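The 200 genes described here were well covered in every control animal cap of this series and lost the most signal when human PHF8 mRNA was injected together with the SUV4-20H morpholinos. They were chosen from 34177 gene IDs by a rule on counts-per-million values (CPM), the sense counts of a gene divided by the sense counts of all genes with an ID in that library. A gene had to reach a CPM of 10 in all 6 control libraries and a mean control CPM of at most 300, which 6817 genes did, called the level-filtered genes below. These were ranked by a score, the log2 ratio of the lowest control CPM to the highest hRescue CPM after adding 0.5 to both, and the first 200 were taken. The difference between controls and hRescue is therefore what selected the genes, and it is given as a description. Calls of the members on it were fixed by the choice and are counted only where alternative ways of processing are compared. The libraries of the hPhf8 group had no part in the choice.

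All 12 libraries were made from animal caps of the frog Xenopus tropicalis at stage NF16, the neurula stage of the Nieuwkoop and Faber table, with 3 replicates in each of 4 groups. An animal cap is a piece of prospective ectoderm cut from a blastula that goes on to form epidermis in culture. The CoMo caps carried a standard control morpholino, and the LacZ caps carried mRNA for bacterial beta-galactosidase. The hPhf8 caps carried mRNA for full-length human PHF8, a histone demethylase. The hRescue caps carried that same mRNA plus translation-blocking morpholinos against both suv4-20h1 and suv4-20h2, the methyltransferases for the di- and trimethyl states of histone H4 lysine 20. According to the study's methods, RNA of many caps was pooled for each library, so a value is an average over embryos and over all cell types of the caps. Fewer cells of a type and less RNA per cell cannot be told apart in such samples. A group with the SUV4-20H morpholinos and no PHF8 mRNA was not analysed here, and the groups used here cannot separate an effect of the morpholinos from one that needs PHF8 as well.

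The frog epidermis is a mucociliary epithelium. Its multiciliated cells build many motile cilia on basal bodies derived from amplified centrioles, its ionocytes pump protons and ions with the help of the V-type ATPase, and its goblet and small secretory cells release mucins and other products. A motile cilium contains an axoneme of microtubule doublets with dynein arms, which are assembled in the cytoplasm with the help of dedicated factors and carried along the cilium by intraflagellar transport. Beneath the epithelium lies an extracellular matrix to which basal cells attach through integrins.

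The libraries differed in depth, which limits the precision of single values. Sense counts over genes ran from 14361942 to 35584520 in the 6 controls and from 5258667 to 7444628 in hRescue, and were 14484963, 2204210 and 10424713 in hPhf8 replicates 1 to 3. Replicate 2 of hPhf8 stood apart, with 12575 genes detected against 18617 to 21185 in the other 11 libraries, and with 23.5% antisense among the sense and antisense counts of all genes against 2.34% to 4.15%. Counts and tests on hPhf8 are therefore given with and without it. Reads on features with no gene ID entered no library total. Of the sense counts of genes and these features together, they made up 53.9% to 60.9% in hRescue against 16.6% to 31.6% in the controls and 20.0% to 26.0% in hPhf8. Their part in the results was not tested. With scaling by library size in place of TMM, edgeR's scaling by the bulk of the genes, the median log2 difference of all genes tested moved from 0.03 to 0.36 in hRescue against LacZ, from -0.02 to 0.21 against CoMo and from 0.02 to 0.14 against hPhf8. The same change of scaling moved it from -0.03 to 0.13 in hPhf8 against LacZ and from 0.00 to -0.13 in LacZ against CoMo.

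The 200 genes together took 1.65%, 1.17% and 1.32% of the sense counts in CoMo replicates 1 to 3 and 1.92%, 1.21% and 1.63% in LacZ. In hPhf8 they took 1.54%, 0.975% and 1.22%, and in hRescue 0.169%, 0.146% and 0.252%. The group means were 1.38% ± 0.25 (SD, n = 3) in CoMo, 1.59% ± 0.36 in LacZ, 1.24% ± 0.28 in hPhf8 and 0.189% ± 0.056 in hRescue. The hRescue libraries lay below all others. The rule required this gene by gene against the controls, while the hPhf8 libraries had no part in it. No 95% Wilson interval reached further than 0.0131 percentage points from its share, and these intervals cover counting error only. The median count of a member was 37.5, 23.0 and 40.0 reads in hRescue replicates 1 to 3, where 1 read is worth 0.134, 0.188 and 0.190 CPM. Member by member, fewer than 10 reads were counted for 16, 38 and 8 genes in these libraries, so single hRescue values are imprecise. Of the 200 genes, 197 could be named and 160 carried a gene symbol.

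**Figure D1:**
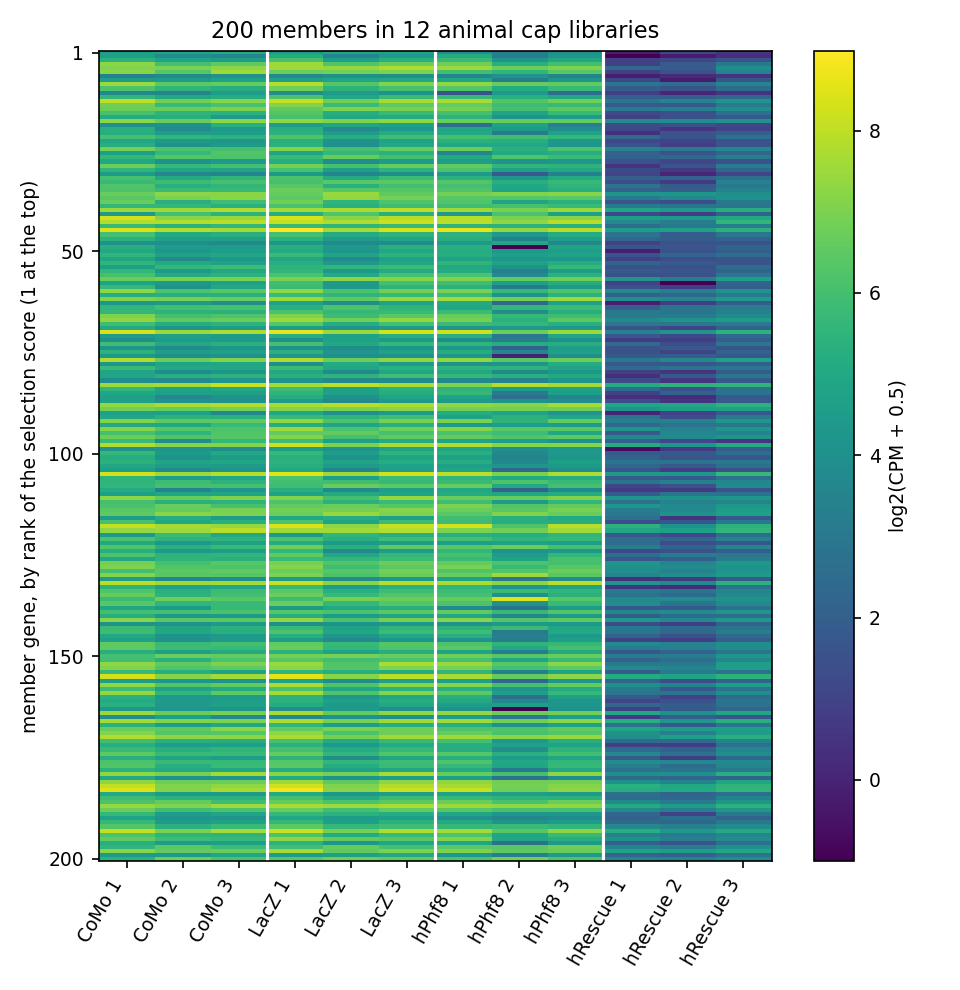
Level of each of the 200 genes (rows, ordered by the selection score) in each of the 12 libraries (columns) as log2(CPM + 0.5). The 6 control columns and hPhf8 replicates 1 and 3 look alike, hPhf8 replicate 2 has single genes at 0, and the 3 hRescue columns are dark because the genes were chosen for that.

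The score ran from 1.55 to 3.29, and its median was 1.87. The last 2 genes inside the list were gene27707, which has no name, at 1.56 and nedd9, an adhesion-associated scaffold protein, at 1.55. The first 2 genes outside it were LOC100496491 at 1.55 and c1orf158 at 1.55. The threshold therefore did not fall in a gap of the ranking.

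The highest score belonged to mettl24, which encodes a methyltransferase-like protein. Its level was 24.3, 27.3 and 34.9 in CoMo replicates 1 to 3, 21, 29.4 and 27.4 in LacZ, 14.98, 9.53 and 15.3 in hPhf8 and 0.403, 1.69 and 0.951 in hRescue (all in CPM). All hRescue values were at most 1.69 CPM, and the hPhf8 values lay between those of hRescue and the controls without touching either. For cat2 the values were 24.3, 13.8 and 11.3 in CoMo replicates 1 to 3, 34.5, 10.9 and 20.8 in LacZ, 35.1, 9.07 and 17.7 in hPhf8 and 0, 0.376 and 0.761 in hRescue. The 0 in hRescue replicate 1 allows up to 0.403 CPM, the worth of 3 reads, and hPhf8 ran from below the lowest control in replicate 2 to just above the highest in replicate 1. The level of tusc5, a membrane protein called trarg1 in RefSeq, was 135.4, 127 and 152 in CoMo replicates 1 to 3, 186, 167 and 217 in LacZ, 179.6, 103 and 129 in hPhf8 and 4.97, 3.197 and 15.4 in hRescue. Again hRescue lay far below, with its replicate 3 highest, and hPhf8 fell among the controls except in replicate 2. The microRNA gene mir205a, whose family is known from epithelia, had 23.3, 22.2 and 27.6 in CoMo replicates 1 to 3, 25.6, 28.9 and 31.7 in LacZ, 28.7, 8.62 and 19.0 in hPhf8 and 1.75, 0.376 and 2.66 in hRescue. Replicates 2 and 3 of hPhf8 were below its lowest control and replicate 1 was not.

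Other high-scoring genes act in quite different places. The matrix protein gene mamdc2 stood at 10.1, 12.4 and 16.2 in CoMo replicates 1 to 3, 12.6, 15.8 and 15.04 in LacZ, 11.5, 17.2 and 10.6 in hPhf8 and 0.403, 0.752 and 0.951 in hRescue. The 3 hPhf8 values were all above the lowest control and far from hRescue. For stmn1, which encodes the microtubule-destabilizing protein stathmin, the values were 107, 106 and 128 in CoMo replicates 1 to 3, 93.7, 134 and 124 in LacZ, 122, 64.4 and 89.0 in hPhf8 and 7.93, 9.40 and 15.02 in hRescue. For tril, which encodes a leucine-rich repeat protein of the cell surface, they were 152, 99.7 and 153 in CoMo replicates 1 to 3, 155, 132 and 154 in LacZ, 105.4, 100.3 and 95.4 in hPhf8 and 13.3, 13.7 and 16.2 in hRescue. For both, every other library exceeded hRescue, and hPhf8 lay within the control range in 1 of 3 replicates for stmn1 and in 2 of 3 for tril. The kinase gene cdkl2 had 37.8, 13.5 and 22.2 in CoMo replicates 1 to 3, 36.9, 12.4 and 19.6 in LacZ, 29.2, 21.3 and 14.7 in hPhf8 and 1.75, 0.940 and 1.52 in hRescue. Replicate 1 was the highest library of every group, hRescue included.

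Genes of cilia, basal bodies and their microtubules formed the largest group with a shared role. Gene lists of 3 kinds (motile axoneme and dynein assembly; intraflagellar transport, transition zone and basal body; multiciliated cell programme) held 232 symbols, of which 192 could be matched to an ID, 163 were level-filtered genes and 23 were members. By list, 11 of 93 level-filtered axoneme genes, 11 of 59 transport and basal body genes and 1 of 11 programme genes were members, which are 11.8%, 18.6% and 9.09%, where members made up 2.93% of all level-filtered genes. These shares follow from the rule and are given as a description. Gene names came from result tables of the study, which are ordered by its own tests and cover 6622 IDs, so matched genes are not a random subset of a list. They named 197 of the 200 members but only 3201 of the 6817 level-filtered genes. The 2.93% therefore counts unnamed genes that no list could match, and the share of members among named genes is higher. Counting other symbols with a known ciliary or microtubule role, added after their values were seen, 39 of the 200 belonged to this group.

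Among the axoneme genes, dnaaf1, a cytoplasmic factor for the assembly of dynein arms, counted 154, 71.6 and 82.9 in CoMo replicates 1 to 3, 155, 69.9 and 116 in LacZ, 123, 49.9 and 74.2 in hPhf8 and 13.3, 9.40 and 15.97 in hRescue (CPM). The lowest of the 9 other libraries was 49.9 CPM in hPhf8 replicate 2, above all 3 hRescue values. The dynein heavy chain gene dnah3 showed 317, 138 and 193.7 in CoMo replicates 1 to 3, 368, 143 and 243 in LacZ, 206, 94.8 and 152 in hPhf8 and 34.8, 28.0 and 42.4 in hRescue. Levels of tekt2, a filament protein of the axoneme, were 147, 86.8 and 86.5 in CoMo replicates 1 to 3, 165, 69.2 and 122 in LacZ, 145, 77.6 and 90.9 in hPhf8 and 19.3, 13.4 and 20.5 in hRescue. In these 3 genes replicate 1 was the highest of CoMo, of LacZ and of hPhf8. The adenylate kinase gene ak7 varied in the same manner, with 179, 99.9 and 119 in CoMo replicates 1 to 3, 206, 95.1 and 155 in LacZ, 164, 106 and 112 in hPhf8 and 30.1, 15.8 and 29.7 in hRescue. Tubulin-binding tppp3 had 26.0, 24.6 and 12.3 in CoMo replicates 1 to 3, 31.0, 16.1 and 20.7 in LacZ, 36.0, 28.1 and 18.1 in hPhf8 and 0.537, 1.504 and 2.85 in hRescue. Cilia and flagella associated protein gene cfap58 had 43.8, 24.5 and 26.0 in CoMo replicates 1 to 3, 42.2, 18.3 and 26.5 in LacZ, 36.7, 11.8 and 26.0 in hPhf8 and 2.28, 1.504 and 4.18 in hRescue. In cfap58 all 3 hPhf8 values exceeded those of hRescue, and replicate 2 of hPhf8 was the lowest of them.

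Further members with known cilium roles were among the 15 highest-scoring genes with a symbol. The gene gas2l2, whose product links actin and microtubules at the base of motile cilia, had 181, 88.2 and 99.1 in CoMo replicates 1 to 3, 234, 79.0 and 137 in LacZ, 160.2, 102 and 93.5 in hPhf8 and 6.98, 5.45 and 11.2 in hRescue. Its hPhf8 values were all inside the control range of 79.0 to 234 CPM. For c17orf105, called cfap97d1 in RefSeq, the values were 150, 63.3 and 91.2 in CoMo replicates 1 to 3, 184, 77.2 and 106 in LacZ, 112, 39.9 and 61.2 in hPhf8 and 1.48, 3.197 and 7.42 in hRescue. Here hPhf8 replicates 2 and 3 fell below the lowest control and replicate 1 did not. The glutamate-rich protein gene erich3, which is known from cilia, had 66.4, 44.3 and 41.6 in CoMo replicates 1 to 3, 78.3, 37.0 and 54.4 in LacZ, 66.0, 28.1 and 53.0 in hPhf8 and 2.01, 2.26 and 5.70 in hRescue.

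The transport and basal body members were of the same kind. The small GTPase gene arl3.2, related to the ciliary GTPase ARL3, stood at 36.5, 23.1 and 23.1 in CoMo replicates 1 to 3, 42.3, 21.8 and 34.5 in LacZ, 33.1, 8.17 and 26.8 in hPhf8 and 0.806, 2.44 and 3.42 in hRescue. The kinesin-associated gene kifap3, a part of the motor for anterograde intraflagellar transport, had 64.6, 40.3 and 43.2 in CoMo replicates 1 to 3, 72.1, 41.0 and 55.3 in LacZ, 58.1, 20.0 and 47.8 in hPhf8 and 6.18, 10.2 and 11.03 in hRescue. Both were inside the control range in hPhf8 replicates 1 and 3 and below it in replicate 2. Of the transition zone genes, dzip1l had 222, 108 and 134.5 in CoMo replicates 1 to 3, 224, 103 and 162 in LacZ, 159.7, 83.9 and 107 in hPhf8 and 7.52, 12.4 and 25.5 in hRescue. For rpgr the values were 32.1, 19.7 and 25.8 in CoMo replicates 1 to 3, 34.6, 19.9 and 23.4 in LacZ, 23.7, 26.8 and 23.8 in hPhf8 and 5.37, 2.07 and 2.66 in hRescue. The basal body genes fam92b and ccdc176 showed the same separation, with lowest non-hRescue values of 30.9 and 29.98 CPM and highest hRescue values of 7.42 and 7.04 CPM. The programme list contributed ccdc67, also called deup1, which builds the deuterosomes on which centrioles are amplified, with 141, 84.4 and 80.6 in CoMo replicates 1 to 3, 130.1, 68.7 and 100.3 in LacZ, 104.7, 182 and 85.8 in hPhf8 and 11.3, 14.7 and 20.0 in hRescue. Its highest value of all came from hPhf8 replicate 2. The transcription factor gene foxj1, which switches on motile cilium genes, was not a member and is named after its values were seen. It had 224, 135.5 and 144 in CoMo replicates 1 to 3, 303, 115 and 229 in LacZ, 245, 74.9 and 167 in hPhf8 and 91.3, 42.3 and 61.4 in hRescue, a score of 0.33.

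The lists of other epidermal and non-epidermal cell types held 5 members. Of 13 level-filtered ionocyte genes only atp6v1b1, a subunit of the proton-pumping V-type ATPase, was a member, with 156, 92.5 and 129.5 in CoMo replicates 1 to 3, 175, 77.2 and 211 in LacZ, 173, 82.6 and 146 in hPhf8 and 7.52, 7.52 and 23.4 in hRescue. Replicate 3 was the highest of the hRescue libraries, and all 3 lay below the lowest other value of 77.2 CPM. The junction and keratin list gave itga3, an integrin subunit for laminin binding, and cldn34, a claudin, out of 16 level-filtered genes, or 12.5%. For itga3 the values were 106, 124 and 125 in CoMo replicates 1 to 3, 127, 154 and 141 in LacZ, 132, 95.7 and 112 in hPhf8 and 18.1, 9.03 and 24.0 in hRescue. For cldn34 they were 49.7, 17.1 and 31.8 in CoMo replicates 1 to 3, 55.7, 20.0 and 44.1 in LacZ, 42.0, 8.17 and 20.9 in hPhf8 and 2.28, 1.32 and 3.61 in hRescue. The integrin gene varied less among the controls than the claudin gene, in which replicate 1 stood highest in CoMo and LacZ.

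None of 5 goblet and small secretory cell genes, 13 Notch signalling genes and 2 neural genes past the level filter were members. The mesoderm and muscle list gave 2 of 3, the transcription factor genes tbx20 and hand2, both known from heart development. For tbx20 the CPM values were 15.5, 17.1 and 37.7 in CoMo replicates 1 to 3, 22.3, 28.9 and 24.6 in LacZ, 5.94, 25.9 and 9.98 in hPhf8 and 2.01, 2.26 and 1.71 in hRescue. For hand2 they were 20.6, 66.0 and 43.7 in CoMo replicates 1 to 3, 38.2, 77.6 and 39.1 in LacZ, 19.8, 68.1 and 25.0 in hPhf8 and 1.88, 1.32 and 3.99 in hRescue. In tbx20 hPhf8 replicates 1 and 3 fell below every control and replicate 2 did not, and in hand2 the lowest values of the controls and of hPhf8 were those of replicate 1. No gene of the endoderm list or of the blood, endothelium and leukocyte list passed the level filter.

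**Figure D2:**
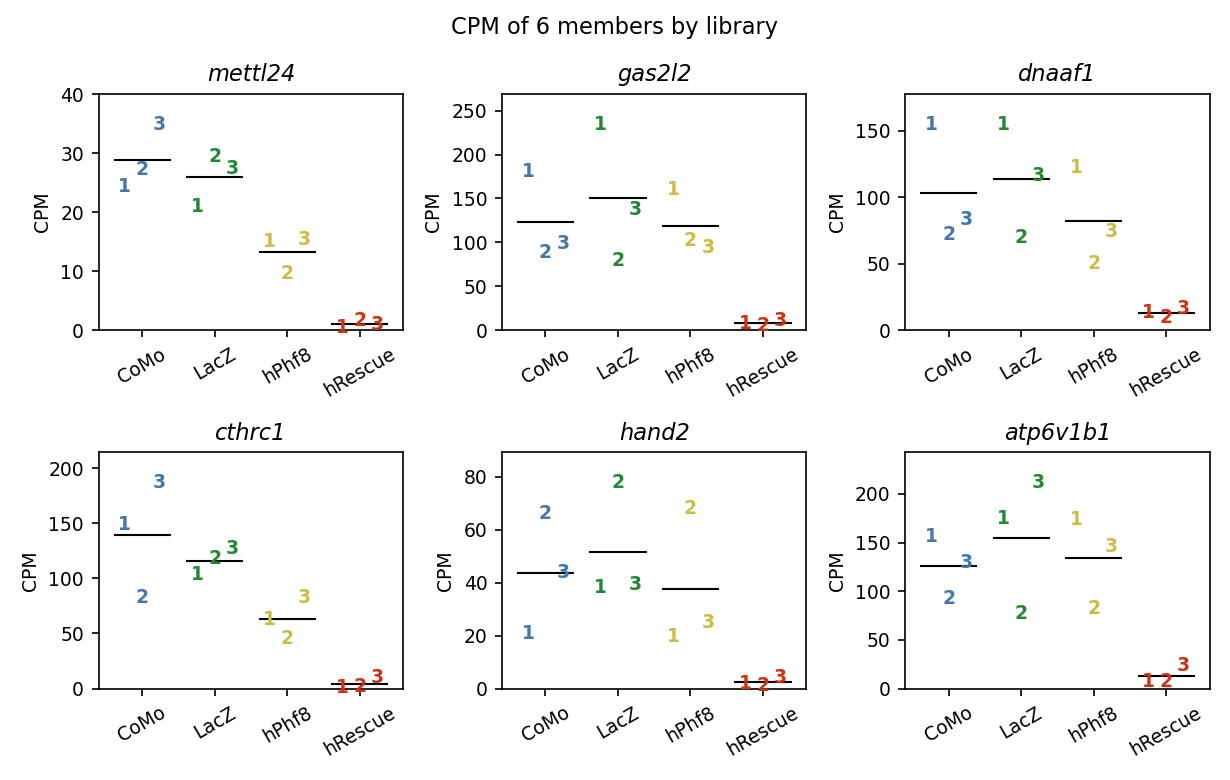
CPM of 6 of the 200 genes in every library, with digits marking replicates 1, 2 and 3 and a black line at the mean of each group. The hPhf8 mean is below both control means in every panel but that of atp6v1b1. In mettl24 all hPhf8 values are below every control, and in each other panel at least 1 of them reaches the control range. In every panel hRescue is lowest. Its place below the controls follows from how the genes were chosen.

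The remaining members with a well-known role were sorted into matrix and adhesion genes (15), ligands, receptors and signalling enzymes (16) and transcription factors and cofactors (7) after their values were seen, which leaves 123 members of other or unknown role. The highest score among the matrix genes was that of cthrc1, a secreted collagen triple helix repeat protein, with 148.9, 82.2 and 187 in CoMo replicates 1 to 3, 103, 118 and 127 in LacZ, 62.6, 45.4 and 82.7 in hPhf8 and 1.34, 2.26 and 9.89 in hRescue. Its hPhf8 values were below all controls in replicates 1 and 2 and reached the lowest control in replicate 3. The membrane-bound metalloproteinase gene mmp14, named after its values were seen like the next 4 genes, had 101, 154 and 149.4 in CoMo replicates 1 to 3, 97.8, 172 and 94.1 in LacZ, 119, 136 and 142 in hPhf8 and 18.8, 18.8 and 15.02 in hRescue. The latent TGF-beta binding protein gene ltbp1 had 90.6, 147 and 129 in CoMo replicates 1 to 3, 105.1, 167 and 132 in LacZ, 83.0, 137 and 101 in hPhf8 and 7.52, 16.7 and 25.5 in hRescue. For mmp14 and ltbp1 replicate 2 exceeded replicate 1 in CoMo, in LacZ and in hPhf8. The laminin receptor gene bcam stood at 229, 228 and 246 in CoMo replicates 1 to 3, 265, 219 and 290.5 in LacZ, 250.3, 155 and 241 in hPhf8 and 12.5, 8.84 and 47.4 in hRescue. Its hRescue replicate 3 was the highest of the 3 and still below the lowest other value of 155 CPM.

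Among the signalling genes, apln, which encodes the peptide ligand of the apelin receptor, had 29.8, 22.7 and 51.3 in CoMo replicates 1 to 3, 21.4, 32.9 and 37.4 in LacZ, 13.1, 6.35 and 22.5 in hPhf8 and 2.82, 3.01 and 6.09 in hRescue. The EGF family ligand gene ereg had 55.9, 111 and 83.0 in CoMo replicates 1 to 3, 57.5, 121 and 107 in LacZ, 97.1, 361 and 82.2 in hPhf8 and 13.03, 13.7 and 16.4 in hRescue. The hPhf8 value of apln was below the lowest control in replicates 1 and 2, whereas ereg had its highest value of all libraries in hPhf8 replicate 2. The Nogo receptor-like gene rtn4rl1, one of the 15 highest-scoring members with a symbol, had 13.02, 11.3 and 23.2 in CoMo replicates 1 to 3, 14.7, 22.0 and 17.3 in LacZ, 2.55, 20.0 and 5.66 in hPhf8 and 1.34, 0.564 and 0.951 in hRescue. It was below every control in hPhf8 replicates 1 and 3, and within the control range in replicate 2.

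Whether the loss in hRescue was already present with PHF8 mRNA alone was asked by placing the hPhf8 libraries, which the choice of genes did not use, against the range of the 6 controls. In hPhf8 replicate 1, 22 of 200 members were below the lowest control, 156 within the control range and 22 above the highest control. Replicate 3 had 34 below, 159 within and 7 above. The shares of level-filtered genes below the lowest control were 10.7% and 7.82% in these libraries, against 11% and 17% of the members. Within the control range were 71.9% and 68.9% of level-filtered genes, and above the highest control 17.4% and 23.2%. In hPhf8 replicate 2, 118 members were below, 75 within and 7 above, beside 41.4%, 39.3% and 19.3% of level-filtered genes. In each hPhf8 library a smaller share of members than of level-filtered genes was above the highest control. Every member was above the highest hRescue value in hPhf8 replicate 1 and in replicate 3, as were 41.3% and 43.8% of level-filtered genes, 36.5% in both. In replicate 2, and so in all 3 hPhf8 libraries, 195 of 200 members were above it, against 34.3% and 24.5% of level-filtered genes. The hRescue side of these last counts was fixed by the rule. The rule also ranked genes by their lowest control value. A shift of the members toward lower places against the control range is therefore built into the choice to an unknown extent. The log2 ratio of the mean of hPhf8 replicates 1 and 3 to the control mean had a median of -0.09 over the members and 0.07 over the level-filtered genes. For replicate 2 the medians were -0.76 and -0.21.

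**Figure D3:**
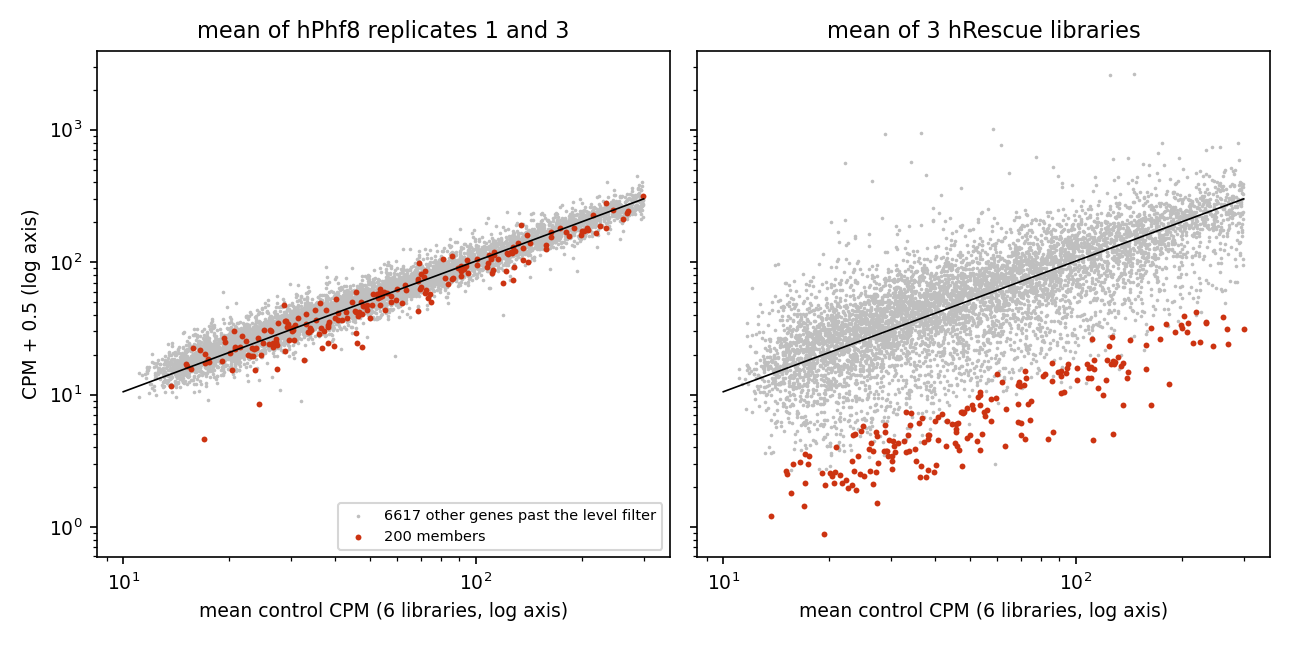
Mean CPM in hPhf8 replicates 1 and 3 (left) and in the 3 hRescue libraries (right) against the mean CPM of the 6 controls, on log axes, for the 200 members in red and the 6617 other level-filtered genes in grey, with a black line at equal values. On the left the members lie along the line with the grey genes, at a median log2 ratio of -0.09, and on the right they form the lower edge, where the rule placed them.

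The test of hRescue against hPhf8 by edgeR's quasi-likelihood method called 197 of the 200 members lower and none higher at an adjusted p under 0.05, with adjustment over all 15783 genes tested. Over all genes 11.3% were called lower, 9.16% higher and 20.4% in either direction. The hRescue libraries in this test are those that selected the genes, so only the hPhf8 side is new information. The log2 difference, hRescue minus hPhf8, lay between -5.98 and -1.73 with a median of -2.92, against 0.02 over all genes tested. Without hPhf8 replicate 2, all 200 members were called, with 30.1% of all genes called, and their median difference was -3.08. The 3 members not called with it were c10orf53 (adjusted p = 0.076 by edgeR), trappc13 (0.12) and the unnamed gene3385 (0.18), which had 0, 0.454 and 0 CPM in hPhf8 replicate 2. In that library a count of 0 allows up to 1.36 CPM.

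The differences and p-values of single members given next are descriptions, since the rule chose their low hRescue values. Gene by gene the fitted hRescue minus hPhf8 differences, on the log2 scale with standard errors, were -4.04 ± 0.37 for gas2l2 (edgeR adjusted p = 0.00053) and -2.81 ± 0.38 for dnaaf1 (adjusted p = 0.0017). They were -2.24 ± 0.32 for dnah3, -2.69 ± 0.32 for tekt2, -3.12 ± 0.36 for ccdc67 and -2.34 ± 0.45 for kifap3, with adjusted p-values of 0.0021, 0.001, 0.00095 and 0.0068 by edgeR. Outside the cilium group, cthrc1 differed by -3.94 ± 0.66 (adjusted p = 0.0039), mmp14 by -3.03 ± 0.20 (adjusted p = 0.00018) and atp6v1b1 by -3.51 ± 0.51 (adjusted p = 0.0022). The largest fitted difference was that of cat2, -5.98 ± 0.91 (adjusted p = 0.0027), which rests on at most 4 reads in any hRescue library. For tbx20 the difference was -2.85 ± 0.64 and for rtn4rl1 -3.30 ± 0.88, with adjusted p-values of 0.014 and 0.027. The calls on tbx20 and rtn4rl1 were lost when any 1 hRescue replicate was left out, with adjusted p-values from 0.054 to 0.11. Without hPhf8 replicate 2, which was the highest hPhf8 library for both, the differences were -2.13 ± 0.41 and -2.19 ± 0.58, with adjusted edgeR p-values of 0.0046 and 0.02. Further differences without it were -4.17 ± 0.36 for gas2l2, -3.09 ± 0.31 for dnaaf1, -2.89 ± 0.29 for tekt2, -2.79 ± 0.28 for ccdc67 and -2.69 ± 0.30 for kifap3. They were -4.18 ± 0.62 for cthrc1, -3.04 ± 0.18 for mmp14, -3.78 ± 0.47 for atp6v1b1 and -6.39 ± 0.68 for cat2.

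No member was called by edgeR in hPhf8 against LacZ or in hPhf8 against CoMo, and no other gene was either (0% of all genes tested in both). At an unadjusted p under 0.05, 30 members were lower and none higher against LacZ, where 6.09% of all genes had such a p, 3.43% lower and 2.67% higher. Against CoMo 5 members were lower and 2 higher, where 3.25% of all genes had such a p, 1.25% lower and 2% higher. Without hPhf8 replicate 2 no gene was called either, and 29 and 17 members had an unadjusted p under 0.05, beside 7.01% and 4.52% of all genes. The fitted difference hPhf8 minus LacZ was below 0 for 189 members and 52.1% of all genes, with a median of -0.52 over the members. That of hPhf8 minus CoMo was below 0 for 151 members and 52.2% of all genes, with a median of -0.20. Over all genes tested these medians were -0.03 and -0.02. Without hPhf8 replicate 2 the members' medians were -0.40 and -0.08. Since the rule demanded high values in every control, and both comparisons used these controls, a tilt below 0 is built into the choice of genes to an unknown extent. DESeq2 called 3 members lower in hPhf8 against LacZ, among 0.38% of all genes called, and none against CoMo. They were mettl24, with a log2 difference of -1.06 and an adjusted p of 0.017, cthrc1 with -1.01 and 0.017, and kcnk9, a potassium channel gene, with -1.04 and 0.032.

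Below the lowest control in hPhf8 replicates 1 and 3 alike were 5 members, or 2.5%, against 1.98% of level-filtered genes. They were mettl24, rtn4rl1, tbx20, slc10a4, a transporter of the bile acid transporter family, and kcnk9. The last 2 are named after their values were seen, since the rule for naming genes did not reach them. The CPM values of slc10a4 were 31.9, 29.96 and 52.3 in CoMo replicates 1 to 3, 37.1, 27.9 and 40.1 in LacZ, 21.3, 23.1 and 22.5 in hPhf8 and 4.84, 6.58 and 7.04 in hRescue. Those of kcnk9 were 27.0, 18.5 and 17.9 in CoMo replicates 1 to 3, 30.2, 23.7 and 24.4 in LacZ, 15.9, 11.8 and 13.9 in hPhf8 and 4.03, 5.64 and 3.99 in hRescue. For both, all 3 hPhf8 values fell between the controls and hRescue. With replicate 2 included, mettl24, slc10a4 and kcnk9 remained below, which is 1.5% of members against 1.33% of level-filtered genes. With CPM scaled by TMM over all 12 libraries 12 members in place of 5 were below in replicates 1 and 3. The share of level-filtered genes under that scaling was not counted, so the 12 cannot be set against a background. Above the highest control in hPhf8 replicates 1 and 3 were rnf125, a ubiquitin ligase gene, rab34, a small GTPase gene with a part in ciliogenesis, and frmpd2, which are 1.5% of members against 7.19% of level-filtered genes. The rule chose high control values, so these shares too are tilted by the choice of genes to an unknown extent.

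LacZ and CoMo are both controls, and edgeR called no gene between them (0% of all genes tested). The fitted LacZ minus CoMo difference was above 0 for 186 of the 200 members and 49.6% of all genes, with a median of 0.31 against 0.00 over all genes, and 17 members had an unadjusted p under 0.05, all with LacZ higher, beside 3.42% of all genes, where 2.05% had LacZ and 1.37% had CoMo higher. DESeq2 also called no member. These fits took no account of replicate numbers. With a replicate block in edgeR, 2110 of 17988 genes had an unadjusted p under 0.05, and the smallest adjusted p was 0.0805. With scaling by library size 168 members were above 0, where the median over all genes tested was -0.13. The share of all genes above 0 under that scaling was not counted. All 3 LacZ libraries were above all 3 CoMo libraries for 8 members, or 4%, against 2.13% of level-filtered genes. For tusc5 the difference was 0.58 ± 0.18 (SE) on the log2 scale, with an unadjusted edgeR p of 0.013 and an adjusted p of 0.999. Without replicate 1 of LacZ the median over the members was 0.06.

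The members also differed by replicate number. Replicate 1 exceeded replicate 2 in both CoMo and LacZ for 147 of 200 members, or 73.5%, against 27.8% of level-filtered genes. The median log2 difference between these replicates was 0.63 in CoMo and 0.90 in LacZ, against -0.10 and -0.12 over the level-filtered genes. In hPhf8, replicate 1 exceeded replicate 3 for 160 members, or 80.0%, against 42.8%. The labels do not say what a replicate number stands for. Of the 39 members of the cilium group 38 were higher in replicate 1 in both control groups, at a median of 0.78 in CoMo and 1.07 in LacZ. Of the 140 level-filtered genes of the 3 cilium lists that were not members, 131 were so too, at 0.74 and 0.98.

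The 123 members of other or unknown role shared this pattern. In both control groups 98 of them were higher in replicate 1 and 9 in replicate 2, at median log2 differences of 0.67 in CoMo and 0.92 in LacZ. The matrix and signalling groups, sorted after their values were seen, did not share it. Replicate 1 exceeded replicate 2 in both control groups for 4 of 15 matrix and adhesion genes and replicate 2 exceeded replicate 1 for 10, with median log2 differences of -0.22 in CoMo and -0.19 in LacZ. Of the 16 ligands, receptors and signalling enzymes, 4 were higher in replicate 1 and 8 in replicate 2. Of the 7 transcription factors and cofactors, 3 were higher in each. Summed over the cilium group the level ranged from 2288 to 4884 CPM among controls and from 2136 to 3670 in hPhf8, and was 410, 351 and 594 CPM in hRescue replicates 1 to 3. The matrix group summed to 1662 to 2101 CPM in the controls, 1518 to 1745 in hPhf8 and 205, 211 and 342 in hRescue.

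**Figure D4:**
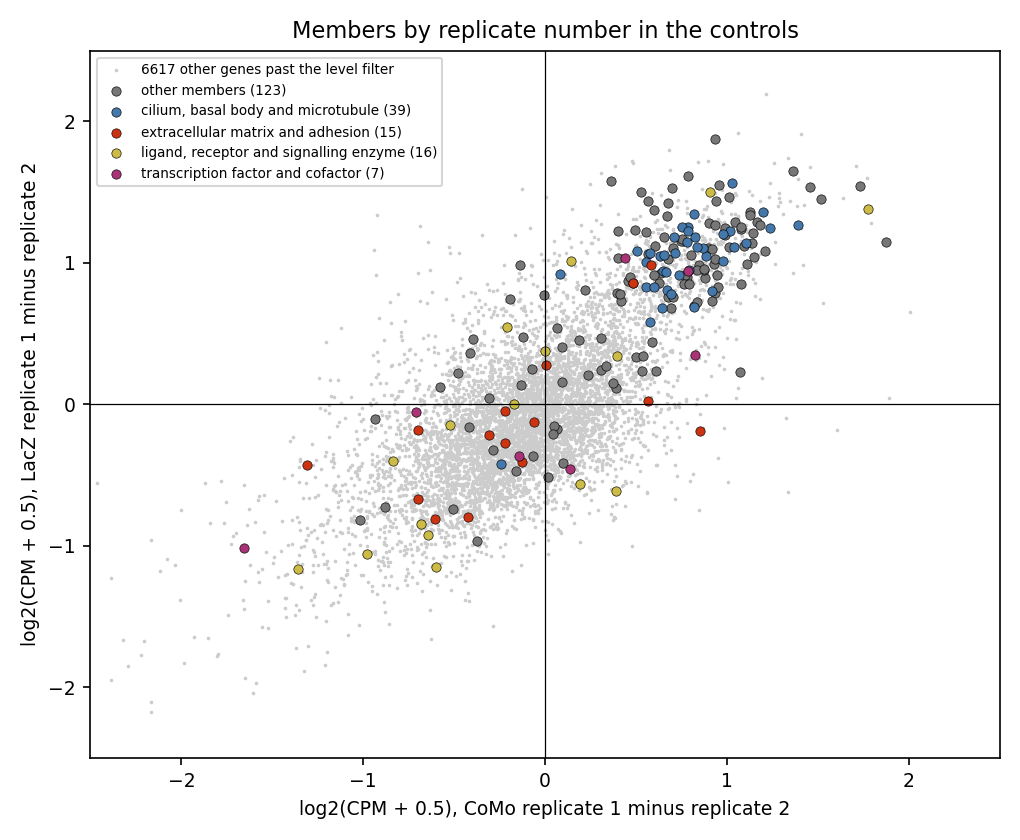
Difference between replicates 1 and 2 in log2(CPM + 0.5), in CoMo on the horizontal axis and in LacZ on the vertical axis, for the 200 members by role and for the 6617 other level-filtered genes in grey. Of the 39 cilium genes in blue 38 lie in the upper right quadrant, and 10 of the 15 matrix and adhesion genes in red lie in the lower left.

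The hRescue libraries were not alike in the members either. Replicate 3 was the highest of the 3 for 165 of 200 members, or 82.5%, against 28.3% of level-filtered genes, and the lowest for 7. The log2 ratio of replicate 3 to the mean of replicates 1 and 2 had a median of 0.62 over the members and -0.03 over the level-filtered genes. This held in each role group, for 34 of 39 cilium genes, 12 of 15 matrix genes, 14 of 16 signalling genes and 5 of 7 transcription factor genes. Among the 140 cilium list genes that were not members it held for 75. Replicate 3 also had the smallest share of counts without a gene ID, 53.9% against 56.2% and 60.9%, and its part in this pattern was not tested. When replicate 3 was left out of the rule, 155 of the 200 genes were chosen again, the fewest for any library left out.

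Lists fixed by symbol were also counted in hRescue against hPhf8, to set the members beside all matched genes of their lists. The counts include the members, whose low hRescue values the rule chose. These were 11 axoneme, 11 transport and basal body, 1 programme, 1 ionocyte, 2 junction and keratin and 2 mesoderm and muscle genes. Of 105 axoneme genes tested, edgeR called 89 lower and 0 higher, with a median log2 difference of -1.79. Of 70 transport and basal body genes 53 were lower and 0 higher, and of 16 programme genes 12 were lower and 0 higher, with medians of -1.70 and -1.53. Of 14 ionocyte genes 12 were lower and 0 higher, with a median of -2.32. These compare with 11.3% of all genes called lower, and with -2.92 for the members. The goblet and small secretory list had 8 lower and 1 higher of 19, the junction and keratin list 9 lower and 8 higher of 42, and the Notch list 6 lower and 8 higher of 22. The neural list had 4 lower and 3 higher of 14, and the mesoderm and muscle list 5 lower and 2 higher of 12. The blood list had 2 lower and 1 higher of 6. Of 7 endoderm genes tested 5 were higher and 0 lower. Without hPhf8 replicate 2, 103 of 105 axoneme genes, 67 of 71 transport and basal body genes, 12 of 16 programme genes and 14 of 14 ionocyte genes were called lower and none higher, beside 17.2% of all genes called lower and 12.9% higher. In that fit the goblet and small secretory list had 10 lower and 2 higher of 20, the junction and keratin list 11 and 8 of 43, the Notch list 7 and 8 of 22 and the neural list 5 and 4 of 14. The mesoderm and muscle list had 6 lower and 2 higher of 14, the blood list 2 and 1 of 7 and the endoderm list 0 and 5 of 7. The summed level of all 8 matched endoderm genes was 3.61 to 15.5 CPM in the controls, 7.80 to 16.3 in hPhf8 and 144, 142 and 79.5 in hRescue replicates 1 to 3. The lowest endoderm sum of hRescue thus came with the highest values of most members, and the part of either in the other was not tested. Since only genes that appear in the study's tables could be matched, the called share of a list is not that of the complete list. The 11.3%, 17.2% and 12.9% cover all genes tested, named or not. They are therefore not a like base for the lists, and no called share among named genes is given here.

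The strand opposite to the members was not used by the rule. Antisense counts made up 0.685% to 1.36% of the members' sense and antisense counts in the controls, 0.859% to 1.51% in hPhf8 and 15.6%, 12.1% and 7.08% in hRescue replicates 1 to 3. This share has the members' sense counts in its denominator, which the rule chose to be low in hRescue, so its rise follows in part from the choice of genes. The Wilson intervals reached at most 0.697 percentage points from these shares. The members' antisense counts, scaled like CPM by the sense counts of the library, came to 133 to 161 in the controls, 133 to 162 in hPhf8 and 311, 200.5 and 192 in hRescue. Unscaled they were 2081 to 5398 reads in the controls and 2314, 1066 and 1011 in hRescue replicates 1 to 3. The sense counts used for scaling leave out features without a gene ID, whose share was larger in hRescue. The part of these features in the scaled rise was not tested. The locus LOC100494180 held 20.1% to 41.0% of the members' antisense counts in every library, and without it the hRescue shares were 12.9%, 8.44% and 4.62% against 0.492% to 0.811% in the controls. Scaled by the library's sense counts, the antisense counts without it were 248.5, 133.7 and 121.7 in hRescue and 91.6 to 106.2 in the controls. All 3 hRescue libraries were above all controls in antisense CPM for 32 members, or 16%, against 31.1% of level-filtered genes. The mean antisense CPM of hRescue was above that of the controls for 59.5% of members and 79.0% of level-filtered genes. The antisense share of all level-filtered genes was 0.933% to 0.980% in the controls and 2.39%, 1.97% and 1.58% in hRescue replicates 1 to 3. In hRescue replicate 1, 18 members had more antisense than sense counts, and in replicates 2 and 3 these were 9 and 5. In each library of the other groups there were 0 to 2. Low sense counts in hRescue were chosen by the rule, so this difference follows in part from it. Level-filtered genes were not counted in this way. The counts of overlapping genes on opposite strands could not be examined without gene coordinates.

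**Figure D5:**
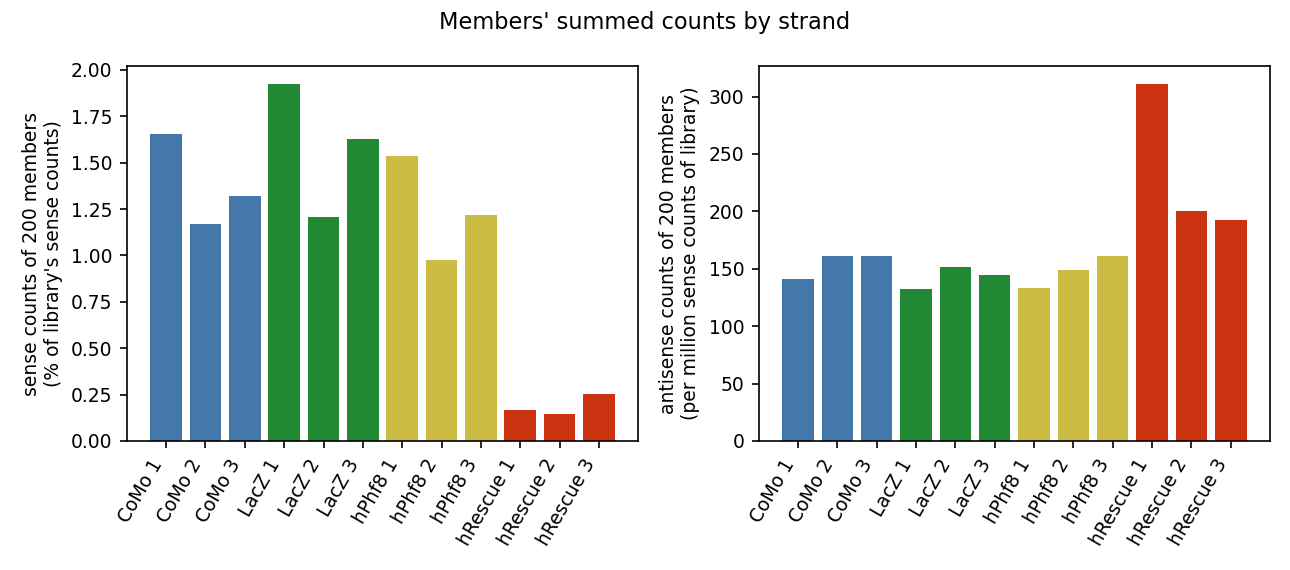
Sense counts of the 200 members as a percentage of each library's sense counts (left) and their antisense counts in CPM, scaled by the sense counts of the library (right), 1 bar for each library, colored by group. The sense bars of hRescue are at most 0.252%, against at least 0.975% elsewhere, while its antisense bars of 192 to 311 exceed the 133 to 162 of the other libraries.

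The injected agents are not checked by these counts. The morpholinos block translation and need not change transcript levels, and the human PHF8 mRNA need not be counted by frog gene models. The endogenous suv420h1 transcript had CPM values of 89.3, 72.5 and 118 in CoMo replicates 1 to 3, 90.0, 108 and 84.1 in LacZ, 62.0, 56.7 and 75.5 in hPhf8 and 72.0, 57.7 and 71.5 in hRescue. For kmt5c, another name of suv4-20h2, the values were 129, 107 and 143 in CoMo replicates 1 to 3, 94.9, 105.2 and 99.99 in LacZ, 90.1, 113 and 101 in hPhf8 and 167, 139 and 136 in hRescue. The frog phf8 gene had 164, 175 and 191 in CoMo replicates 1 to 3, 124, 161 and 131 in LacZ, 118, 138 and 157 in hPhf8 and 148, 127 and 125 in hRescue. None of the 3 was called by edgeR in hRescue against hPhf8, with adjusted p-values of 0.85, 0.12 and 0.56, and none was a member. In hRescue against LacZ, edgeR called suv420h1 lower (log2 difference -0.81 ± 0.16, adjusted p = 0.0037) and phf8 lower (-0.39 ± 0.13, adjusted p = 0.047), beside 20.6% of all genes called lower and 39.1% in either direction. Against CoMo it called both lower, suv420h1 by -0.73 ± 0.24 (adjusted p = 0.038) and phf8 by -0.64 ± 0.16 (adjusted p = 0.011), beside 18.7% and 33.4%. The call on suv420h1 against LacZ held under all alternatives run, with adjusted p-values up to 0.048. The other 3 calls were lost in some edgeR alternatives. That on phf8 against LacZ was lost with any 1 library left out (adjusted p = 0.070 to 0.16). That on suv420h1 against CoMo was lost with any but CoMo replicate 2 left out, and that on phf8 against CoMo without CoMo replicate 3 (adjusted p = 0.056). With every library kept, DESeq2's size factors lost phf8 against LacZ (adjusted p = 0.055) and suv420h1 against CoMo (0.056). The filterByExpr filter lost both too (0.090 and 0.051). No filter and the joint fit lost phf8 against LacZ (0.073 and 0.070). Scaling by library size lost suv420h1 and phf8 against CoMo (0.11 and 0.059). With scaling by library size the difference of phf8 from LacZ was -0.06 (adjusted p = 0.80). By edgeR kmt5c was called against neither control, and with scaling by library size it was higher than in LacZ (0.56, adjusted p = 0.015). DESeq2 called kmt5c higher in hRescue than in hPhf8 (0.50, adjusted p = 0.040). In hPhf8 against LacZ, suv420h1 differed by -0.68 ± 0.17 (edgeR adjusted p = 0.78), and DESeq2 called it lower (-0.67, adjusted p = 0.033). In hPhf8 against CoMo its difference was -0.57 ± 0.24 (edgeR adjusted p = 0.97).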

How the data were processed

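Stranded paired-end libraries, depleted of ribosomal RNA with the NEBNext kit per the labels, were mapped by the authors to X. tropicalis v9.1 with STAR 2.7.1a, which also counted reads over Xenbase gene models. The authors deposited these raw counts per gene, 1 file per library, without normalisation. Groups and replicate numbers came from the sample titles. The sense column was used, without STAR's 4 summary entries and the entry for features without a gene ID, and CPM was computed over the remaining 34177 IDs. The members and gene lists were chosen with earlier results of these data known. Names were taken from the study's supplementary tables (6622 IDs), none of whose values were used, and from RefSeq (UCB_Xtro_10.0). Of the 200 members, 35 had a LOC name and 3 none, and 1 name that a spreadsheet had turned into a date was not used.

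All genes with at least 1 read in 75% of the 6 libraries compared were tested with edgeR 4.0.16 in R 4.3.3 (glmQLFit and glmQLFTest, TMM, two-sided, Benjamini-Hochberg adjustment over all genes tested). As in the study's pairwise design, a fit held only the 6 libraries of the groups compared and no covariate. Calls were made at an adjusted p under 0.05. Standard errors are the absolute log2 difference divided by the root of the F statistic. On simulated counts for hRescue against hPhf8 (15379 genes), 85.9% of genes changed by 3 on the log2 scale and 38% of those changed by 1.5 were recovered, and for hPhf8 against LacZ (16214 genes) 84.5% and 44.4%. False calls made up 5.38% and 11.9% of the calls in these simulations. The changed genes were drawn only from those above a minimum mean count. By rule, the text names the 15 highest-scoring members with a symbol and up to 6 members of each gene list. The rule also covers the 2 genes on each side of the threshold, the morpholino targets and phf8. Any other gene was named after its values were seen, also where the passage does not say so. The study calls its replicates biological, while the labels only number them, and p-values measure the spread between these libraries.

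The alternatives were DESeq2 1.42.0, its size factors in edgeR, library size only, 2 other filters on low counts, unstranded counts, a replicate block, a joint fit of all 12 libraries, and fits that each omitted 1 library. Same-numbered libraries were taken as paired where all 3 correlations of their deviations from the group means, across genes, were over 0.1. This was so in LacZ against CoMo (correlations of 0.71, 0.66 and 0.38 for replicates 1 to 3), in hRescue against LacZ and in hRescue against CoMo, and not in the comparisons of hPhf8 with hRescue, LacZ and CoMo, whose lowest correlations were -0.02, 0.04 and 0.08. The p-values given for the paired comparisons come from fits without the pairing unless the replicate block is named. Promoter and protein sequences were not used here, and a planned motif search was not run. Reads of near-identical copies and of overlapping genes make the counts of such genes uncertain.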

Additional observations from a re-analysis of the deposited data

Results flagged for a closer look

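Among the comparisons of expression, only the alternative with unstranded counts used the antisense counts of the members. Scaled by the library's sense counts, these antisense counts were above the level of the controls in all 3 hRescue libraries. Their share of the members' sense and antisense counts was 15.6% in hRescue replicate 1, 12.1% in replicate 2 and 7.08% in replicate 3, against at most 1.36% in a control. The members' sense counts in the denominator were chosen to be low in hRescue, so the rise of this share follows in part from the rule. Scaled by the library's sense counts the members' antisense counts were 311, 200.5 and 192 CPM, against at most 161 CPM in a control. Unscaled they were 2314, 1066 and 1011 reads, against at least 2081 in a control. The sense counts used for scaling leave out features without a gene ID, and the part of these features in the scaled rise was not tested. The antisense share of all level-filtered genes was higher in hRescue too, at 1.58% to 2.39% against at most 0.980% in a control, and the mean antisense CPM was higher in hRescue for 79.0% of level-filtered genes and 59.5% of members. Reads on features with no gene ID entered no library total. Of the sense counts of genes and these features together, they made up 56.2%, 60.9% and 53.9% in hRescue replicates 1 to 3, against at most 31.6% in a control. Groups of 3 libraries were too small to test single libraries as outliers.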

How the results depend on the processing

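Of the 200 members, 197 were called in hRescue against hPhf8, and 163 to 200 when a library was left out, fewest without hRescue replicate 1. Over all genes tested, 3224 of 15783 were called with all libraries and 1576 of 16156 without hRescue replicate 1. Without hPhf8 replicate 2, where all 200 members were called, 5186 of 17222 genes were. In hRescue against LacZ and against CoMo the count was 200 with any library left out, which the choice of the genes on these same values fixed and which says nothing of stability. No member was called in hPhf8 against LacZ, hPhf8 against CoMo or LacZ against CoMo with any library left out, and among all alternatives only DESeq2 called any, 3 in hPhf8 against LacZ. The replicate block gave 195 calls in hRescue against hPhf8, where 2825 of all 15783 genes tested were called. It changed none of the counts of the other comparisons, which were 200 for hRescue against LacZ and CoMo and 0 elsewhere. In hPhf8 against CoMo every library correlated best with its own number, as a hint from the data only. Of the 200 genes, 155 to 197 were chosen again when a control or hRescue library was left out, 175 with TMM-scaled CPM, 184 with unstranded counts, 166 with a pseudocount of 5, 172 with a control minimum of 5 CPM, and 100 by construction with a list of 100. With TMM-scaled CPM 12 members in place of 5 were below the lowest control in hPhf8 replicates 1 and 3, and 7 with unstranded counts. The shares of level-filtered genes in these 2 settings were not counted, and the cause was not tested. The 33 named members kept the sign of the hRescue minus hPhf8 difference in all 330 alternatives, and in 11 of them, on rtn4rl1, tbx20 and gene27707, the call was lost. With rtn4rl1 this included the replicate block (adjusted p = 0.071). The rule chose the low hRescue values that enter this comparison too, so the kept signs and calls are weak evidence of stability. Alternatives added after the data were seen were those for the morpholino targets and phf8, TMM-scaled CPM and unstranded counts for the replicate patterns (162 and 148 members in place of 147 with replicate 1 above replicate 2 in both control groups, and 172 and 159 in place of 165 with hRescue replicate 3 highest) and the antisense share without LOC100494180 (a mean of 8.65% in hRescue in place of 11.6%). Low counts limit single values in hRescue and in hPhf8 replicate 2, and the absence of calls in hPhf8 against the controls does not show equal expression.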
